A study of Mus musculus with 7 samples.

Results

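The laminins and nidogen were 9 genes, Lama2, Lama3, Lama4, Lama5, Lamb1, Lamb2, Lamb3, Lamc1 and Nid1. They were taken as the rows of these symbols in the raw count matrix, and all 9 were among its 27998 genes. The matrix came from 3′ single-cell RNA sequencing on the 10x Chromium platform of 13684 cells of dissociated abdominal mammary glands, lymph nodes removed, with 1 library for each of 7 mice. The 3 young mice (Young A to C) were 3 to 4 months old and the 4 aged mice (Aged A to D) were 13 to 14 months old. All 7 were females that had never been pregnant and were taken in diestrus, with FVB, 129 and C57BL/6J in their mixed genetic background. No treatment of either group is given in the labels. The question addressed was how RNA levels in each mammary cell type differ between these ages.

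Each cell carried 1 of 13 cell type names deposited by the study. Fat cells were not captured, as the study removed them with the supernatant. Leading types, main sources and shares below are therefore among the captured cells. Among them were myoepithelial cells, the contractile basal layer of the epithelium, hormone-sensing (HS) and alveolar (AV) luminal cells, fibroblasts, vascular endothelial cells and pericytes, which are the 6 types tested for age. A library held between 6652599 and 16999625 counted molecules (unique molecular identifiers, UMIs). Libraries shared between 1 and 10 cell barcodes with one another. Cell barcodes were written in another form in the young than in the aged libraries, so age and library handling cannot be told apart. The 9 genes took 19819 UMIs, 0.0237% of all UMIs. Levels below are CPM, the UMIs of a gene for each 1000000 UMIs summed over a mouse's cells of a type, for mice with at least 3 such cells.

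Laminins are trimers of an alpha, a beta and a gamma chain that polymerise into a sheet on the basal side of epithelial, endothelial, muscle and fat cells. Nidogen binds the laminin gamma chain and collagen IV and so links the laminin sheet to the collagen IV network of the basement membrane. The alpha chain carries most of the sites for integrins and dystroglycan: Lama3 and Lama5 are the chains typical of epithelia, Lama4 of vessels and Lama2 of muscle and mesenchyme. Lamb3 is the beta chain that pairs with Lama3 in the laminin of hemidesmosomes, whereas Lamb1, Lamb2 and Lamc1 serve most other trimers. In the mammary gland the basement membrane surrounds the ducts and alveoli, where it lies against the myoepithelial layer, and laminin contact is known to be needed for milk protein expression in luminal cells.

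Promoters are printed for 4 members that recur in the age comparison: Lamb2, Lama5 and Lamb1, which were called lower together in aged myoepithelial cells, and Nid1, which was called lower in 4 cell types. In AV cells and pericytes only the young mice reached the level of Nid1 needed for testing. Its call in fibroblasts was lost when any mouse but Young A was left out. Each run is the part of the 250 bases before the RefSeq start (GRCm38.p6) that lies outside the GENCODE gene model, 5′ to 3′ on the gene's strand. Capitals mark matches on either strand to the letters GGGCGG (GC box) or to the letters CCAAT (the box named after it). The letters TATAAA (a core promoter box) and the letters TGANTCA (AP-1 motif) were searched as well.
Lama5: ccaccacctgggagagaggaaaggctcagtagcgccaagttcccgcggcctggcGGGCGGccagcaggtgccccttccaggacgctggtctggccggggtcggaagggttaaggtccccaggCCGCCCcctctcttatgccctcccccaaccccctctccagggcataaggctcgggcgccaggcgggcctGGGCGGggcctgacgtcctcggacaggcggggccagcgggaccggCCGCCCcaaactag
Lamb1: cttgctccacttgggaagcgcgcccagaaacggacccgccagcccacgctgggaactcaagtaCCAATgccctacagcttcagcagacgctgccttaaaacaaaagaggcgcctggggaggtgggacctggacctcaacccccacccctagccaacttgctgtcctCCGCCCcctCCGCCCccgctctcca
Lamb2: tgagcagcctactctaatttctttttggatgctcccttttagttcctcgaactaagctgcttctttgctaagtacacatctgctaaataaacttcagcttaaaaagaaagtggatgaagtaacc
Nid1: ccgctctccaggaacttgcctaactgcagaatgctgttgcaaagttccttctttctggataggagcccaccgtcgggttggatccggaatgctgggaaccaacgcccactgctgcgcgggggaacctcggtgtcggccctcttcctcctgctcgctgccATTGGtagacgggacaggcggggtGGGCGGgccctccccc
The Lama5 run is chr2:180225860-180226109 on the minus strand, Lamb1 chr12:31265043-31265233, Lamb2 chr9:108479612-108479735 and Nid1 chr13:13437352-13437550, the last 3 on the plus strand.

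Over the 250 bases, Lama5 held 4 GC boxes, Lamb1 held 2 with 1 CCAAT box, and Nid1 held 1 of each. Lamb2 held none of the 4 motifs and neither TATAAA nor TGANTCA was found in any of these promoters. Matches did not overlap one another. Of 32851 promoters of the same length in the table, 32.7% held GGGCGG, 33.8% CCAAT, 12.4% TATAAA and 6.75% TGANTCA. The GC content was 72.4% for Lama5, 64.4% for Nid1, 62.0% for Lamb1 and 43.6% for Lamb2, beside a median of 52.4% over all promoters. A promoter was listed for 6 of the 9 members.

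The highest mean of a member lay in fibroblasts for 4 members, in myoepithelial cells for Lama3 and Lamb3, in HS cells for Lama5 and in lymphatic endothelial cells for Lama4 and Lamb1. Among the alpha chains, Lama2 was a fibroblast gene within the captured types, at 116 ± 34.6 CPM (SD, n = 7 mice) and between 64.0 and 155 CPM in single mice. It was 10.2-fold above the next type, Ma macrophages, without overlap in the 3 mice that had both, and fibroblasts held 94.8% of its 1321 UMIs. Lama3 was led by myoepithelial cells, with 52.6 ± 13.5 CPM (SD, n = 7), 7.61-fold above pericytes and higher in 7 of 7 mice. Lama3 had UMIs in 21.0% of myoepithelial cells and in 0.0502% of fibroblasts, at median depths of 4431 and 4414 UMIs per cell. These types were named by the study on the same cells, so the levels are a description without a test.

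Lama4 was spread over the vessel and mesenchymal types. Its mean was 59.7 ± 25.9 CPM (SD, n = 5) in lymphatic endothelial cells, 50.7 ± 27.5 (n = 7) in fibroblasts, 31.6 ± 17.3 (n = 7) in pericytes and 22.2 ± 18.5 (n = 7) in vascular endothelial cells. Neighbours in this order overlapped, and the lymphatic value rests on 10 UMIs from 28 cells. Lama5 was highest in HS cells, at 66.2 ± 20.6 CPM (n = 7) and at 51.6 ± 29.6 CPM (n = 6) in HS-AV cells, a small luminal cluster with markers of both luminal types. It stood at 40.3 ± 11.9 CPM in pericytes, 24.9 ± 14.6 in myoepithelial cells and 21.6 ± 9.49 in vascular endothelial cells, and at 1.85 ± 2.77 CPM in fibroblasts (n = 7 each). HS cells held 1030 of the 2058 Lama5 UMIs.

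Among the beta chains, Lamb1 was at 84.3 ± 48.1 CPM (n = 5) in lymphatic endothelial cells and 81.7 ± 33.7 CPM (n = 7) in fibroblasts, ranges that overlap, followed by pericytes at 40.6 ± 29.1 and myoepithelial cells at 36.9 ± 14.3 CPM. The lymphatic value of Lamb1 rests on 13 UMIs, with 0 CPM in the lowest mouse. Lamb2 was at 107 ± 21.5 CPM in fibroblasts and 90.6 ± 43.2 CPM in pericytes, again overlapping, with vascular endothelial cells at 49.7 ± 30.0 CPM (n = 7 each). Lamb3 was a myoepithelial gene, at 133 ± 27.3 CPM (n = 7) and between 103 and 174 CPM in single mice, and AV cells held 18.3 ± 7.19 CPM.

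Natural killer (NK) cells had a Lamb3 level close to that of myoepithelial cells, 119 ± 83.6 CPM in the 5 mice with at least 3 NK cells. By mouse it was 64.5 in Young A, 77.4 in Young B, 54.1 in Young C, 141 in Aged A and 255 CPM in Aged B. The value rests on 17 UMIs in 14 of 40 cells, a share of 35.0% (Wilson 95% interval 22.1 to 50.5, counting error only). In T and B cells the share was 13.3% (6.91 to 24.2), at a median of 4392 UMIs per cell against 4224 in NK cells. The myoepithelial keratins Krt14, Krt17 and Krt5 together had 4 UMIs in the 40 NK cells, whereas in myoepithelial cells 100 UMIs of these keratins came with 1.22 (young) and 1.11 (aged) Lamb3 UMIs. Epcam, an epithelial surface gene, had 30 UMIs in 9 of the 40 NK cells, and Nkg7, a gene of cytotoxic lymphocytes, had UMIs in 39 of the 40. Of the 14 NK cells with a Lamb3 UMI, 3 had a keratin UMI, against 1 of the 26 without a Lamb3 UMI. All 14 had a UMI of Nkg7, Gzma, Gzmb or Ptprc. The part of epithelial RNA in this Lamb3 level was not tested further.

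Lamc1, the gamma chain of most laminins, was highest in fibroblasts at 183 ± 50.9 CPM (n = 7), 3.91-fold above pericytes and higher in 7 of 7 mice. Pericytes, myoepithelial, lymphatic endothelial and vascular endothelial cells followed between 46.7 and 42.2 CPM, and neighbours among them overlapped. Nid1 stood at 328 ± 143 CPM in fibroblasts (n = 7, 192 to 526 CPM), 6.07-fold above lymphatic endothelial cells, and fibroblasts held 86.5% of its 4922 UMIs. The lymphatic levels of Lamc1 and Nid1 rest on 6 and 7 UMIs. Pericytes held 51.9 ± 37.8 CPM and vascular endothelial cells 38.4 ± 22.3 CPM, while HS and AV cells held 1.47 ± 1.65 and 2.15 ± 2.74 CPM (n = 7 each).

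**Figure D1:**
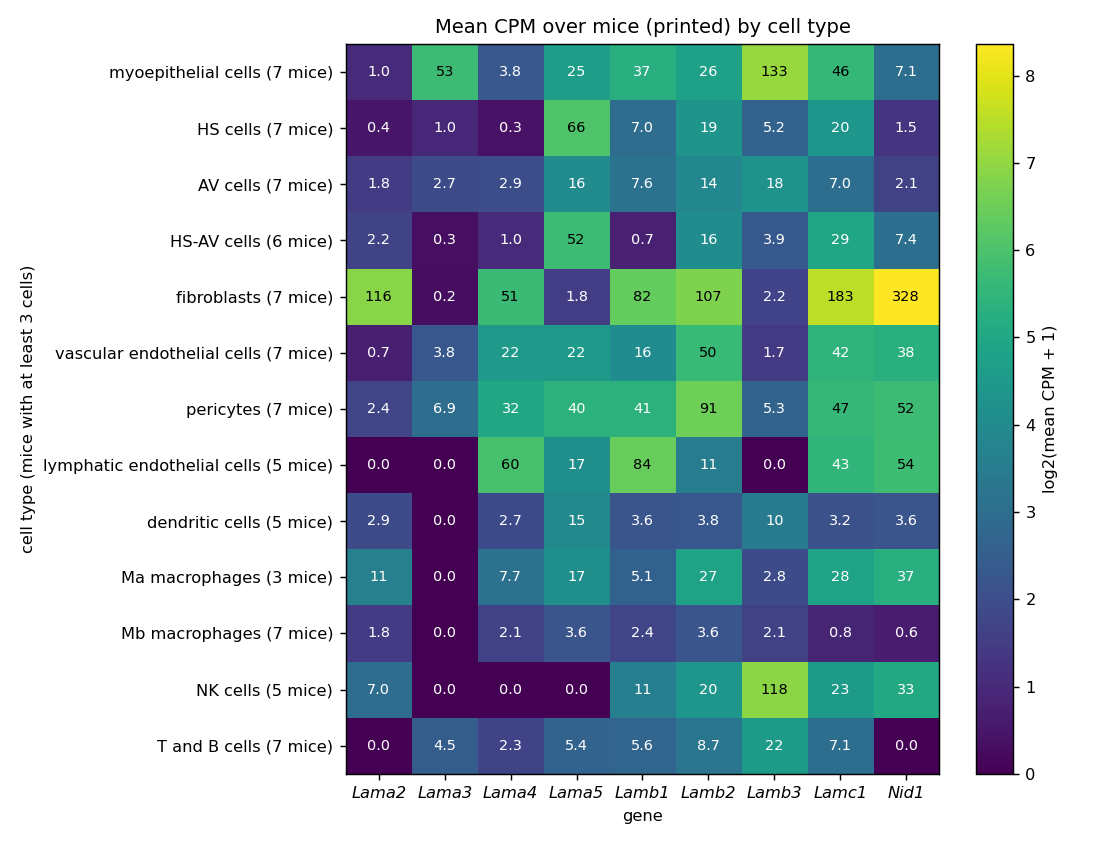
Mean CPM of each member (columns) in 13 cell types (rows), coloured as log2(mean CPM + 1), with the mean over mice printed in each field and the number of mice beside each type. Fibroblasts lead for Lama2, Lamb2, Lamc1 and Nid1, myoepithelial cells for Lama3 and Lamb3, and HS cells for Lama5.

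Fibroblasts were also the cells in which an alpha, a beta and a gamma chain were most often seen together. UMIs of at least 1 alpha, 1 beta and the gamma chain Lamc1 were present in 25.3% of fibroblasts, 5.16% of pericytes, 4.13% of myoepithelial cells and 0.290% of AV cells. With every cell thinned to 2000 UMIs these shares were 4.92%, 0.573%, 0.479% and 0.0207%. After thinning, the share in fibroblasts was 3.96 to 8.15% in the young mice and 0 to 11.8% in the aged mice, which overlap.

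Next, the genes whose levels ran most closely with each member were sought. Likeness was Pearson's r of log2(CPM + 1) over 49 sums of at least 20 cells, which share libraries and cell types, among 4849 genes of a mean of at least 20 CPM. The closest gene was Hsd11b1 for Lama2 (r = 0.919), Cygb for Nid1 (0.911), Gstm2 for Lamb2 (0.888), Grb10 for Lama4 (0.886), Calu for Lamc1 (0.850) and Fkbp9 for Lamb1 (0.831). For the members led by epithelial types it was Col9a2 for Lamb3 (0.860), Pqlc1 for Lama3 (0.858) and Myo18a for Lama5 (0.761). Krt17, a basal keratin, was among the next closest for Lama3 (0.840), and Serpinh1, the collagen chaperone, for Lamb1 (0.827).

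With age, most of the differences found were lower levels in the aged mice. A gene was called where edgeR's quasi-likelihood test gave a Benjamini-Hochberg adjusted p under 0.05 over all genes tested in that type and the fitted difference was at least 1.5-fold. Of 54 combinations of 9 genes and 6 types, 33 had enough counts to be tested, 13 were called lower in aged mice, 2 were called higher and 18 were not called. In 4 of the 15 calls the minimum level of the count filter was reached only by mice of the group with the higher level, so that the member could be tested only because it was high there. These were Lama2 and Nid1 in AV cells and Nid1 in pericytes, reached by young mice alone, and Lamb1 in HS cells, reached by aged mice alone. The counts and medians below include them and are a description. The levels by mouse and the fitted differences are plotted for each type.

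Myoepithelial cells had 3 of 6 tested members lower, where 27.6% of all genes tested were called, 14.8% lower and 12.8% higher. Vascular endothelial cells had 5 of 6 lower, where 26.7% were called, 12% lower and 14.7% higher. Fibroblasts had 2 of 6 lower (3.17% called, 1.11% lower, 2.07% higher), AV cells 2 of 9 lower (6.16% called, 3.26% lower, 2.9% higher) and pericytes 1 of 2 lower (11.8% called, 4.61% lower, 7.19% higher). HS cells had 2 of 4 higher (6.26% called, 2.33% lower, 3.93% higher). The median log2 difference over the tested members was -0.59 in myoepithelial, -0.99 in vascular endothelial, -0.65 in fibroblast, -0.83 in AV, -1.04 in pericyte and 0.97 in HS sums, and that over all genes tested lay between -0.05 and 0.02. The young and aged mice did not overlap for 35.7% of all genes tested in myoepithelial cells, 36.8% in vascular endothelial cells, 24% in pericytes, 22.3% in AV cells, 21.5% in HS cells and 15.9% in fibroblasts.

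**Figure D2:**
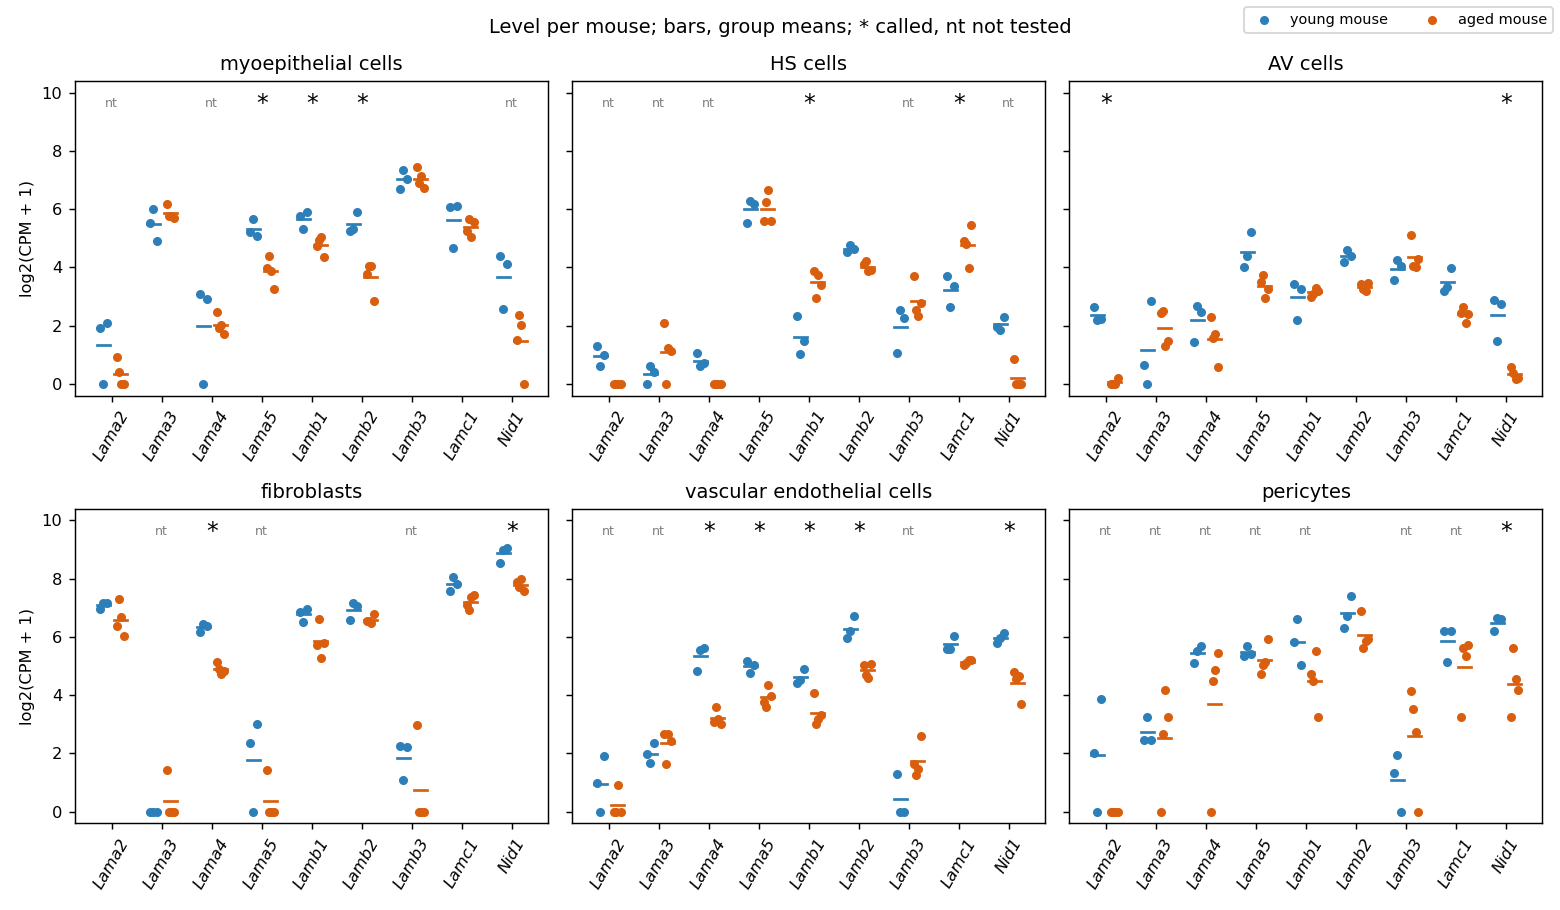
Level of each member in each mouse as log2(CPM + 1), in 6 panels by cell type. Points are mice, bars are group means, an asterisk marks a called difference and nt a gene with too few counts to test. Young and aged points separate for Lama4, Lamb2 and Nid1 in vascular endothelial cells and for Lama5 and Lamb2 in myoepithelial cells.

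**Figure D3:**
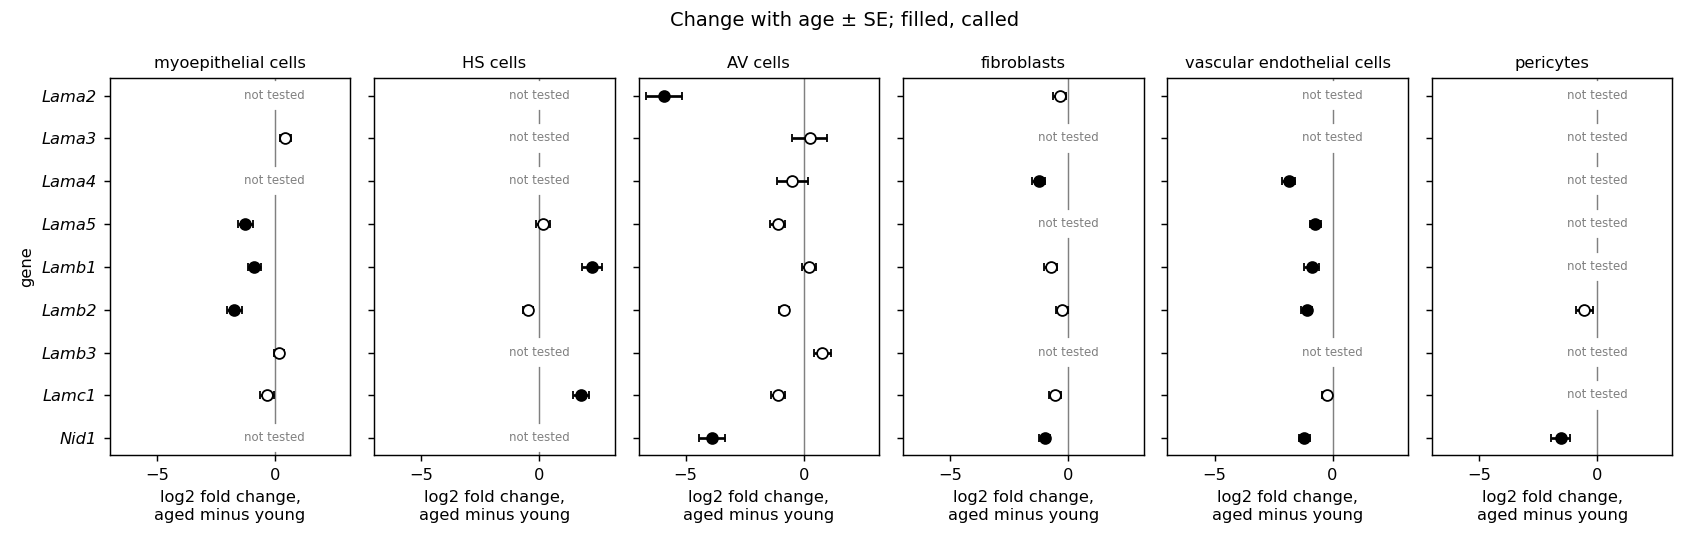
Fitted log2 fold change, aged minus young, with its SE for each member in each of 6 cell types. Filled points passed the call rule. Most filled points lie left of 0, and those of Lamb1 and Lamc1 in HS cells lie right of it.

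RNA of other cell types also moved with age, and beyond the values given its part in the results below was not tested. The summed level of 5 fibroblast markers (Col1a1, Col1a2, Col3a1, Fn1 and Pdgfra) was higher in every young than in every aged mouse in 4 of the 5 other tested types, at 32.4 to 184 against 2.46 to 6.75 CPM in AV cells, 54.1 to 213 against 4.56 to 27.6 in myoepithelial cells, 44.1 to 159 against 11.7 to 33.9 in vascular endothelial cells and 340 to 466 against 45.2 to 185 in pericytes. In HS cells it was 11.1 to 86.4 against 0 to 11.4 CPM, which overlap slightly. None of the 5 markers was at 0 in all mice of these types. Summed HS markers were at 45.3 to 108 CPM in young and 9.23 to 37.7 CPM in aged myoepithelial cells, and at 193 to 277 against 30.0 to 39.3 CPM in AV cells. Summed immune markers (Ptprc, Cd74 and Lyz2) were lower in every aged than in every young mouse in myoepithelial cells, HS cells, AV cells and fibroblasts, and higher in vascular endothelial cells. In vascular endothelial cells this sum was almost all Cd74, with values given below, and whether it reflects RNA of immune cells was not tested. Pericyte markers in vascular endothelial cells were at 98.6 to 346 CPM in young and 5.59 to 66.9 CPM in aged mice. Within fibroblasts the fibroblast-marker sum was 6653 to 9796 in young and 4168 to 5816 CPM in aged mice.

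Among the alpha chains, Lama4, the laminin chain of vessels, fell with age in vascular endothelial cells. It was 27.2, 46.3 and 48.1 CPM in Young A to C, and 7.42, 11.2, 8.02 and 6.98 CPM in Aged A to D. The groups did not overlap, and the fitted log2 difference was -1.87 ± 0.29 (SE, edgeR adjusted p = 0.000342). Without any 1 mouse the difference stayed between -2.14 and -1.71 and was called in 7 of 7 fits. In these cells 100 fibroblast-marker UMIs came with 39.7 Lama4 UMIs in young mice, against 0.868 in young fibroblasts, and 100 pericyte-marker UMIs with 25.5, against 2.99 in young pericytes.

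Lama4 was also lower in aged fibroblasts. The levels were 71.1, 85.3 and 82.3 CPM in Young A to C and 34.5, 28.8, 25.3 and 27.4 CPM in Aged A to D, without overlap. The log2 difference was -1.24 ± 0.28 (edgeR adjusted p = 0.0270). Aged C and Aged D held 15 and 17 fibroblasts, and with at least 20 cells per mouse, a setting chosen after seeing the data, the adjusted p was 0.100. Leaving out any mouse but Young A also lost the call, with differences from -1.43 to -1.18 and adjusted p up to 0.0921. In pericytes Lama4 had 49 young and 14 aged UMIs, too few to test.

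Lama5, the broadly used epithelial and endothelial chain, differed by cell type. In myoepithelial cells it was 35.9, 49.2 and 32.5 CPM in Young A to C and 14.7, 19.98, 13.9 and 8.56 CPM in Aged A to D. All aged mice lay under all young mice, and the log2 difference was -1.26 ± 0.32 (edgeR adjusted p = 0.00859). Without Young A it was -1.31 with an adjusted p of 0.0553, and it was called in the other 6 fits. In these cells 100 HS-marker UMIs came with 66.7 Lama5 UMIs in young and 63.2 in aged mice, against 2.79 and 3.14 in HS cells. In vascular endothelial cells Lama5 was 35.0, 26.1 and 31.6 against 12.7, 11.2, 19.6 and 14.6 CPM, also without overlap, with a log2 difference of -0.73 ± 0.24 (adjusted p = 0.0366). That call was lost without Young A, Young C, Aged A, Aged B or Aged D (adjusted p up to 0.142), and with DESeq2 (adjusted p = 0.134).

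In HS cells, where Lama5 was highest, it did not pass the test. It was 45.5, 77.5 and 70.8 CPM in Young A to C and 47.1, 74.9, 101 and 47.3 CPM in Aged A to D, ranges that lie over each other, with a log2 difference of 0.17 ± 0.29 (edgeR adjusted p = 0.782). In AV cells it was 15.0, 19.8 and 36.0 against 10.2, 12.5, 6.68 and 8.54 CPM, without overlap, but the adjusted p was 0.0682 (log2 difference -1.11 ± 0.32). Lama3, the chain of hemidesmosomes, was 45.3, 63.9 and 29.2 CPM in young and 71.7, 53.0, 53.8 and 51.3 CPM in aged myoepithelial cells, which overlap (log2 difference 0.45 ± 0.25, adjusted p = 0.193).

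Lama2 was not called in fibroblasts, its main source. It was 122, 144 and 144 CPM in Young A to C and 82.8, 155, 101 and 64.0 CPM in Aged A to D (log2 difference -0.35 ± 0.27, edgeR adjusted p = 0.525). It was called lower in aged AV cells (adjusted p = 0.00237), at 5.19, 3.60 and 3.72 CPM in young mice and 0.161 CPM in Aged D, with no UMI in Aged A, B and C. No aged mouse reached the 1.65 CPM of the count filter. Without the filter the adjusted p was 0.000765. These levels come from 20 young UMIs and 1 aged UMI, a ratio of pooled levels of 0.00794 (exact 95% interval 0.000192 to 0.0496, counting error only). In young AV cells 2.99 Lama2 UMIs came with 100 fibroblast-marker UMIs, and in young fibroblasts 1.50.

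Among the beta chains, Lamb2 fell with age in myoepithelial cells. It was 36.8, 39.3 and 58.4 CPM in Young A to C and 12.9, 15.5, 15.4 and 6.28 CPM in Aged A to D. The aged mice all lay under the young mice, with a log2 difference of -1.71 ± 0.34 (edgeR adjusted p = 0.00142), and the call held in 7 of 7 fits without 1 mouse, at -1.93 to -1.45. In young myoepithelial cells 24.7 Lamb2 UMIs came with 100 fibroblast-marker UMIs, against 1.33 in young fibroblasts. The summed keratin markers of the type were 9000 to 11011 CPM in young and 10382 to 11744 CPM in aged mice, which overlap.

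Lamb2 was lower in aged vascular endothelial cells as well, at 60.7, 71.9 and 103 against 31.8, 25.1, 23.2 and 32.4 CPM. The groups did not overlap, the log2 difference was -1.09 ± 0.23 (edgeR adjusted p = 0.00337), and the call held without each mouse. In these cells 100 pericyte-marker UMIs came with 48.0 Lamb2 UMIs in young and 82.7 in aged mice, against 7.70 and 5.89 in pericytes. In fibroblasts, by contrast, Lamb2 was 95.04, 142 and 132 against 91.4, 92.1, 88.6 and 110 CPM, ranges that overlap (log2 difference -0.27 ± 0.25, adjusted p = 0.610). In pericytes it was 78.3, 105 and 169 against 118, 47.7, 56.5 and 60.04 CPM (log2 difference -0.55 ± 0.36, adjusted p = 0.351). HS and AV cells had lower values in every aged than in every young mouse, with log2 differences of -0.48 ± 0.21 and -0.83 ± 0.22 and adjusted p of 0.191 and 0.0551.

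Lamb1 moved in opposite directions in myoepithelial and HS cells. In myoepithelial cells it was 52.9, 39.3 and 58.4 CPM in Young A to C and 25.7, 30.0, 32.3 and 19.4 CPM in Aged A to D, without overlap, with a log2 difference of -0.86 ± 0.26 (edgeR adjusted p = 0.0207). The call was lost without Young A or Young C (adjusted p up to 0.122) and with DESeq2 (0.0625). Lamb1 was also not called without the count filter or with mice blocked by label letter (edgeR adjusted p = 0.113 with the block). In HS cells it was 4.01, 1.06 and 1.80 against 13.8, 6.81, 12.2 and 9.46 CPM, with every aged mouse above every young mouse. The log2 difference was 2.24 ± 0.41 (adjusted p = 0.0131), from 24 young and 48 aged UMIs, and without Young C the adjusted p was 0.0811. No young mouse reached the 5.31 CPM of the count filter. Without the filter the adjusted p was 6.29e-05 and the log2 difference 2.18.

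Elsewhere Lamb1 was called lower in vascular endothelial cells (log2 difference -0.89 ± 0.31, edgeR adjusted p = 0.0441), at 20.4, 21.8 and 28.9 against 15.9, 6.98, 8.02 and 8.89 CPM. After scaling by TMM factors the groups overlapped, and the call held in only 1 of 7 fits without 1 mouse (without Aged A), with adjusted p up to 0.118. Lamb1 also lost this call with DESeq2 (adjusted p = 0.108) and with RLE factors. It was not called in fibroblasts, at 115, 89.9 and 125 against 51.7, 97.8, 38.0 and 54.9 CPM (log2 difference -0.74 ± 0.29, adjusted p = 0.173), nor in AV cells (0.22 ± 0.29). Lamb3 was not called in myoepithelial cells, its main source, at 103, 162 and 130 against 174, 118, 139 and 104 CPM, which overlap (0.17 ± 0.21, adjusted p = 0.597). In AV cells Lamb3 had a log2 difference of 0.79 ± 0.35 (adjusted p = 0.205).

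Lamc1, the gamma chain, rose with age in HS cells together with Lamb1. It was 12.02, 5.31 and 9.32 CPM in Young A to C and 29.3, 26.8, 14.9 and 42.6 CPM in Aged A to D. The groups did not overlap, and the log2 difference was 1.76 ± 0.34 (edgeR adjusted p = 0.0162), lost without Young B or Young C (adjusted p up to 0.0687). Myoepithelial keratin markers were also higher in aged HS cells, at 38.0 to 140 CPM against 13.9 to 22.2 CPM in young. In aged HS cells 100 of these marker UMIs came with 12.9 Lamb1 and 37.1 Lamc1 UMIs, whereas in aged myoepithelial cells they came with 0.235 and 0.399.

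In the other types Lamc1 was not called. In fibroblasts, its main source, it was 192, 266 and 227 CPM in young and 135, 121, 165 and 174 CPM in aged mice, with a log2 difference of -0.56 ± 0.24 (edgeR adjusted p = 0.215). In vascular endothelial cells the log2 difference was -0.24 ± 0.19, in myoepithelial cells -0.33 ± 0.29 and in AV cells -1.09 ± 0.31 (adjusted p of 0.364, 0.429 and 0.0659). Of the 5 types in which Lamc1 was tested, HS cells alone had a call.

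Nid1, the linker between laminin and collagen IV, was called lower in aged fibroblasts, vascular endothelial cells, pericytes and AV cells, the types in which it was tested. In pericytes and AV cells it passed the count filter through the young mice alone. In fibroblasts it was 374, 510 and 526 CPM in Young A to C and 233, 207, 253 and 192 CPM in Aged A to D, without overlap. The log2 difference was -0.998 ± 0.228 (edgeR adjusted p = 0.0298). Like that of Lama4, this call was lost without any mouse but Young A (adjusted p up to 0.126) and with at least 20 fibroblasts per mouse (0.103), while the difference stayed between -1.17 and -0.89. Per 100 fibroblast-marker UMIs, fibroblasts held 5.23 Nid1 UMIs in young and 4.89 in aged mice.

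In vascular endothelial cells Nid1 was 54.4, 61.0 and 68.7 against 26.5, 22.4, 24.1 and 12.1 CPM, with the lowest young mouse far above the highest aged mouse. The log2 difference was -1.20 ± 0.24 (edgeR adjusted p = 0.00188) and the call held without each mouse. In young endothelial cells 61.9 Nid1 UMIs came with 100 fibroblast-marker UMIs and 39.7 with 100 pericyte-marker UMIs, against 5.23 in young fibroblasts and 6.35 in young pericytes. In pericytes Nid1 was 72.3, 99.1 and 96.0 against 8.42, 47.7, 22.6 and 17.2 CPM, without overlap (log2 difference -1.54 ± 0.40, adjusted p = 0.0237). That call was lost without Young B, Young C, Aged C or Aged D (adjusted p up to 0.0961). Without the count filter the log2 difference was -1.69 (adjusted p = 0.00168). The cells named pericytes also held endothelial markers, with a sum of 1628 to 1759 CPM in young and 733 to 1244 CPM in aged mice beside 1836 to 2301 CPM in vascular endothelial cells, and their part in the pericyte result was not tested.

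In the epithelium Nid1 had few UMIs. In AV cells it was 6.35, 1.80 and 5.79 CPM in young mice and 0.494, 0.299, 0.136 and 0.161 CPM in aged mice, from 26 and 8 UMIs, and it was called lower (log2 difference -3.90 ± 0.55, edgeR adjusted p = 0.00331). Without the count filter the log2 difference was -3.85 (adjusted p = 0.00151). Without any 1 aged mouse it no longer had the counts to be tested. In young AV cells 3.88 Nid1 UMIs came with 100 fibroblast-marker UMIs, close to the 5.23 of young fibroblasts. In myoepithelial cells Nid1 had 27 young and 16 aged UMIs, a ratio of pooled levels of 0.146 (exact 95% interval 0.0733 to 0.280, counting error only), and was not tested after the filter on low counts. In HS cells it had 37 young UMIs and 1 aged UMI.

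Whether the age difference of a member differed between types was tested in joint fits of the sums of 2 types with mouse as a block. For fibroblasts against vascular endothelial cells, 0 of 7 tested members differed in edgeR, where 5.62% of all genes did. At an unadjusted p under 0.05 it was Lamb2 alone (log2 difference between the types 0.83 ± 0.30, adjusted p = 0.120). For pericytes against vascular endothelial cells 0 of 6 differed in edgeR and 0 had an unadjusted p under 0.05 (9.60% of all genes differed). For myoepithelial cells against pericytes 0 of 8 differed in edgeR and 3 had such a p (10.0% of all genes differed). DESeq2 gave 0 for each of these 3 pairs. For myoepithelial cells against fibroblasts Lamb2 alone of 9 differed, by -1.37 ± 0.41 (adjusted p = 0.0489), where 4.23% of all genes did. With DESeq2 it was 0 members, and the call was lost when any mouse but Aged B or Aged C was left out.

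HS cells were then set against AV and myoepithelial cells, pairs chosen after seeing the data. The HS levels behind the calls of Lamb1 and Lamc1 enter these fits again, so the adjusted p give no separate support. In the age fit of HS cells Lamb1 had passed the count filter through the aged mice alone. Lamb1 and Lamc1 differed from AV cells by 2.00 ± 0.49 and 2.74 ± 0.42 on the log2 scale (edgeR adjusted p = 0.0362 and 0.000998, 2.41% of all genes). From myoepithelial cells Lama5 differed by 1.48 ± 0.35, Lamb1 by 2.96 ± 0.49 and Lamc1 by 1.98 ± 0.35 (adjusted p = 0.0111, 0.000807 and 0.00129, 9.52% of all genes). Between HS and AV cells Lamb1 did not differ with DESeq2 or when any mouse but Aged B was left out, and Lamc1 did not without Young C. Between HS and myoepithelial cells, Lama5 did not differ without Young A.

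The other genes of the basement membrane showed where the members stood within their structure. Of 18 such genes, 7 of 12 tested were lower and 0 higher in aged myoepithelial cells, where 14.8% of all genes tested were lower and 12.8% higher. Col4a1 and Col4a2, the main collagen IV chains, had log2 differences of -2.33 ± 0.32 and -1.77 ± 0.32, Fbln1 of -1.50 ± 0.44, Pxdn, which crosslinks collagen IV, of -1.16 ± 0.41 and Sparc, a collagen-binding glycoprotein, of -1.10 ± 0.20. The median over the 12 genes was -0.97, beside 0.01 over all genes tested.

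In vascular endothelial cells 7 of 11 were lower and 2 were higher, where 12% of all genes tested were lower and 14.7% higher. Col4a2 was lower by a log2 difference of -1.99 ± 0.23, Col4a1 by -1.87 ± 0.23, the second nidogen gene Nid2 by -1.71 ± 0.35 and Sparc by -1.68 ± 0.15, whereas Col18a1, the source of endostatin, was higher by 2.23 ± 0.23. The other gene that was higher was Fbln2 (1.18 ± 0.23), named after its value was seen. Pericytes had 4 of 8 lower (Col15a1, Col4a1, Sparc and Col4a2), beside 4.61% of all genes tested. HS cells had 2 of 5 lower (Sparc and Tinagl1), beside 2.33%, and AV cells 2 of 14 (Fbln1 and Sparc), beside 3.26%. Fibroblasts had 0 of 10 called by edgeR, beside 3.17% of all genes tested, and 1 by DESeq2. In fibroblasts 5 had an unadjusted p under 0.05, and the median was -0.56, beside 0.00 over all genes tested. Which mice reached the count filter was not checked for these lists. After TMM scaling, the mean of the lower group lay under that filter for Fbln1 in AV cells (0.304 against 1.65 CPM). So it did for Nid2 in vascular endothelial cells (6.39 against 6.98) and Pxdn in myoepithelial cells (8.42 against 9.44). For Col15a1 in pericytes it was 52.25 against 53 CPM. These calls may rest on the higher group alone.

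**Figure D4:**
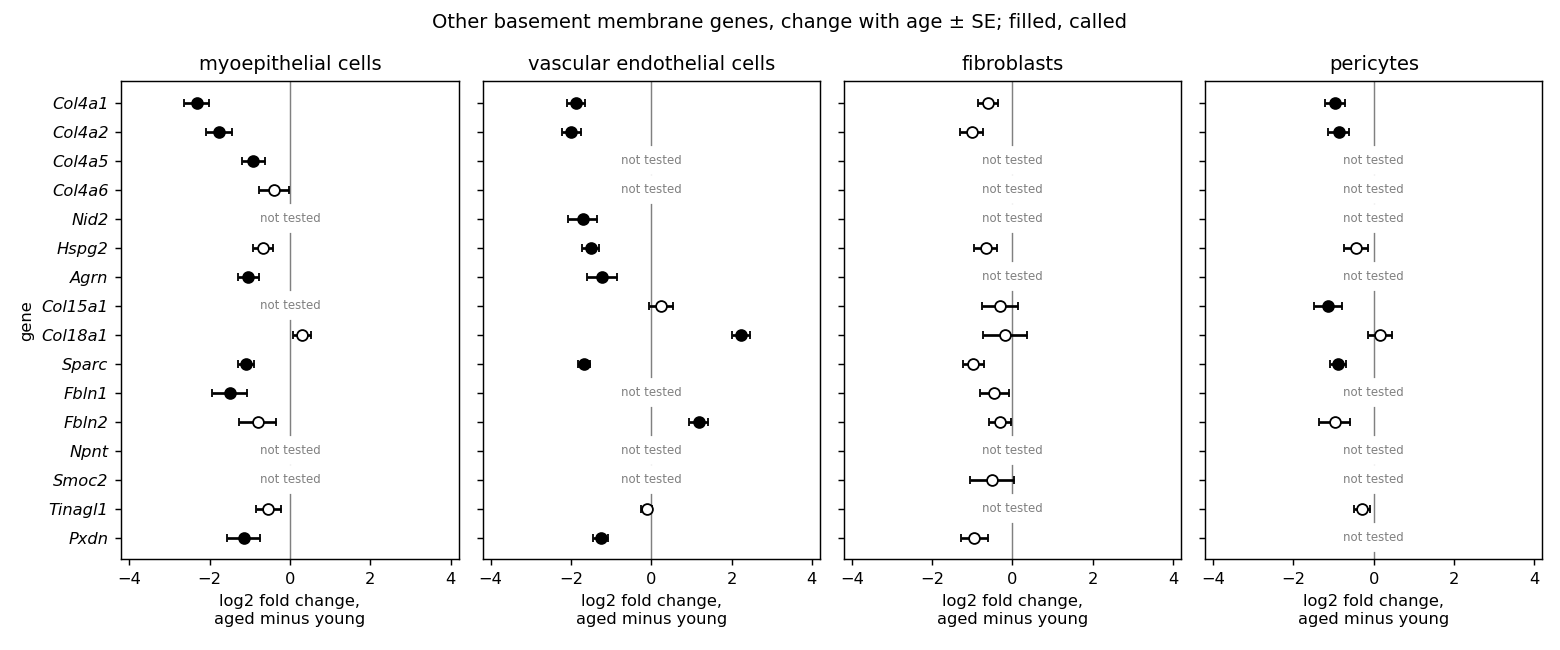
Fitted log2 fold change, aged minus young, with its SE, of the other basement membrane genes in 4 cell types. Filled points passed the call rule. Col4a1 and Col4a2 are filled and left of 0 in myoepithelial cells, vascular endothelial cells and pericytes, and Col18a1 lies right of 0 in vascular endothelial cells.

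Laminin receptors did not move in 1 direction. In myoepithelial cells 3 of 8 tested were lower, the dystroglycan gene Dag1 (-1.93 ± 0.22), the hemidesmosome integrin Itgb4 (-1.79 ± 0.31) and Bcam (-0.83 ± 0.30), and 3 were higher, Sdc1 (0.98 ± 0.20), Itga3 (0.77 ± 0.26) and Itgb1 (0.64 ± 0.20), the last named after its value was seen. Of all genes tested in myoepithelial cells, 14.8% were lower and 12.8% higher. In vascular endothelial cells Itga1 (-1.75 ± 0.36) and Itga6 (-1.45 ± 0.16) were lower and Itgb4 (2.05 ± 0.31) and Sdc1 (1.60 ± 0.34) were higher, of 9 tested. Of all genes tested in that type, 12% were lower and 14.7% higher. The aged mean of Itga1 (6.23 CPM) and the young mean of Itgb4 (5.91 CPM) lay under the 6.98 CPM of the count filter. In pericytes Itga6 alone of 7 was lower (-1.17 ± 0.28), beside 4.61% of all genes tested. Of 8 tested in HS cells, 9 in AV cells and 5 in fibroblasts, 0 were called by edgeR or by DESeq2, with 1 at an unadjusted p under 0.05 in each type. Over all genes tested, edgeR called 6.26%, 6.16% and 3.17% in these types.

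Of the other laminin-family genes, Ntn1, a secreted guidance protein with laminin-like domains, was higher in aged vascular endothelial cells (log2 difference 2.01 ± 0.37). It was the only gene of that list tested there, where 14.7% of all genes were higher. Its young mean, 5.14 CPM, lay under the 6.98 CPM of the count filter. Cd74, counted among immune markers, was at 188 to 576 CPM in young and 617 to 8697 CPM in aged vascular endothelial cells, while Ptprc and Lyz2, the leukocyte and macrophage markers of that list, had means of 1.02 and 5.96 CPM there.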

How the data were processed

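Per the labels and the study's methods, the authors made 10x Chromium 3′ v2 libraries and processed them with Cell Ranger 2.0 against mm10. They deposited a matrix of UMI counts per gene and cell, used as such, and a cell table with the mouse, the cell type and per-cell quality values, of which the deposited mitochondrial fraction was not used. The authors filtered and named the cells before deposit, by steps not repeated here. No doublet caller was run and no cell was removed.

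The UMI counts of all cells of a type were added up in each mouse that had 3 or more of them. These sums were compared between ages with edgeR 4.0.16 in R 4.3.3, using TMM factors, filterByExpr and the quasi-likelihood test with Benjamini-Hochberg adjustment over all genes tested in a type. A call needed an adjusted p under 0.05 and a 1.5-fold difference. Differences between types were fitted jointly with mouse as a block. The age fits and the joint fits planned beforehand were also run on simulated counts, with an outcome not reported here. Changes were set there only in genes with higher counts, so that run does not cover sparse members or the pairs chosen later. Mice are the replicates, with 3 young and 4 aged. The rule for named genes took all 9 members, up to 5 called genes per type from each other list, and the 3 closest genes per member, of which the text gives the first and a few others. The other lists are reported without 1 gene. The members and lists were chosen with earlier results of these data known. Cell Ranger counts reads on the sense strand of exons, and the 3′ libraries do not separate isoforms. Promoters are from RefSeq (GRCm38.p6), trimmed at GENCODE vM21 gene models, without those of Lama3, Lama4 and Lamc1. Alternatives were DESeq2 1.42.0, RLE factors, other filters, equal totals, a replicate block of the label letters and leaving out each mouse.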

Additional observations from a re-analysis of the deposited data

Results flagged for a closer look

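Among 33 sets of 4 aged mice, 3 held a mouse marked as far from the others. The rule marks about 1 in 20 sets of normally distributed values, a rate that need not hold for counts near 0. Aged A had 71.66 CPM of Lama3 in myoepithelial cells, with the other aged mice between 51.3 and 53.8 CPM. Aged D had 109.7 CPM of Lamb2 in fibroblasts, from 17 cells, with the others between 88.6 and 92.1 CPM. Of the aged mice, Aged D alone had a Lama2 UMI in AV cells, at 0.1611 CPM. With no UMI in the other aged mice, any single UMI would have been marked, so this mark carries no information.

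The age difference itself was called as differing between cell types in 6 edgeR tests of a member. For Lamb2, that of myoepithelial cells minus that of fibroblasts was -1.374 on the log2 scale (edgeR adjusted p = 0.0489). It was 1 of 9 members tested, beside 4.23% of all genes. The call was lost with DESeq2 and when any mouse but Aged B or Aged C was left out. In the other planned pairs no member differed. In pairs chosen after seeing the data, HS cells exceeded AV cells by 2.00 for Lamb1 and 2.74 for Lamc1, of 5 members tested, beside 2.41% of all genes. They exceeded myoepithelial cells by 1.475 for Lama5, 2.956 for Lamb1 and 1.977 for Lamc1, of 6 tested, beside 9.52% of all genes. The HS levels behind the age calls of Lamb1 and Lamc1 enter these fits again, so they give no separate support. In the HS age fit Lamb1 had passed the count filter through the aged mice alone. Between HS and AV cells Lamb1 was lost with DESeq2 or without any mouse but Aged B, and Lamc1 without Young C. Between HS and myoepithelial cells Lama5 was lost without Young A.

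Lamb3 appeared in NK cells, a type outside the age comparisons, at a mean of 118.5 CPM over 5 mice, from 17 UMIs.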

How the results depend on the processing

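Counts of called members are given beside the reported counts, which were 3 in myoepithelial, 2 in HS, 2 in AV and 2 in fibroblast sums, 5 in vascular endothelial and 1 in pericyte sums. With counts thinned to equal totals the count was 0 in myoepithelial cells, HS cells, AV cells, fibroblasts and pericytes, where 1 to 4 members kept the counts to be tested. DESeq2 gave 4 in AV cells, 3 in vascular endothelial cells, 0 for the difference between myoepithelial cells and fibroblasts and 1 for that between HS and AV cells. Without ribosomal protein and mitochondrial genes the count in AV cells was 1, and with at least 20 cells per mouse, a setting chosen after seeing the data, that in fibroblasts was 0, from 5 mice. For the other settings the cause was not tested. Without the filter on low counts, Nid1 was also called lower in myoepithelial cells (log2 difference -2.48, edgeR adjusted p = 0.000279) and HS cells (-3.62, 0.0108). These rest on 27 young and 16 aged UMIs in myoepithelial cells and on 37 young UMIs and 1 aged UMI in HS cells. The part of fibroblast RNA in them was not tested. Under the same setting Lamb1 was no longer called in myoepithelial cells.

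Leaving out 1 mouse at a time gave 1 to 4 in myoepithelial cells, 0 to 2 in HS cells, 1 to 2 in AV cells, 0 to 1 in pericytes, 0 to 2 in fibroblasts and 3 to 4 in vascular endothelial sums. The differences between types ranged from 0 to 1 for myoepithelial cells against fibroblasts, 0 to 2 for HS against AV cells and 2 to 3 for HS against myoepithelial cells. Lamb2 in myoepithelial cells and Lama4, Lamb2 and Nid1 in vascular endothelial cells were called in every such fit.

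A replicate block of the label letters gave 0 calls in pericytes, 0 in fibroblasts, 1 in HS cells, 2 in AV cells, 2 in myoepithelial cells and 3 in vascular endothelial sums. Over all genes tested, same-lettered mice did not deviate together (r from -0.15 to 0.07), and Aged D has no partner. This cannot show whether the letters mark a pairing that touches fewer genes.

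The order of the 2 highest cell types, as a log2 ratio, reversed for 4 members whose leading types overlap. For Lama4 the ratio was -0.6643 with TMM factors and -0.1538 to 0.4982 without 1 mouse. For Lama5 it was -0.005516 with at least 10 cells per mouse. For Lamb1 it was -0.8835 with TMM factors, -0.5884 for the share of cells thinned to 2000 UMIs and -0.2459 to 0.4688 without 1 mouse. For Lamb3 it was -0.2856 for the thinned share and -0.01441 to 0.6812 without 1 mouse. The cause was not tested. The depth limits what can be said of members with few UMIs, 21 of the 54 combinations of member and type being too sparse to test, and lymphatic endothelial and NK cells rest on 28 and 40 cells.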
